A study of Mus musculus with 16 samples.

Results

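The Pax family comprised 9 genes, Pax1 to Pax9, chosen by name from the 24982 genes of the count table. All 9 were present in the count and TPM (transcript level scaled for gene length and library size) tables, and all 9 had at least 1 count in some tumor. The RNA came from 16 primary rhabdoid tumors (RT), each from a different Smarcb1flox/flox;R26-CreERT2 mouse of mixed background. In these mice a ubiquitously expressed, tamoxifen-dependent Cre recombinase deletes Smarcb1, which encodes a subunit of the SWI/SNF chromatin remodeling complex. All 16 mice carried the same genotype and all received tamoxifen in the embryo, so that no tumor-free or undeleted tissue stood as a control.

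The 5 Shh tumors grew within the brain (intra-CNS), were all induced at E6 and were taken at 30 to 180 days of age. The 11 Myc tumors consisted of 6 intracranial extra-CNS tumors, taken at 52 to 170 days, and 5 extracranial tumors, taken at 80 to 210 days. Tamoxifen was given at E8 in 4 tumors of each Myc site, at E6 in R26P170 and 43825B, and at E7 in 29225D. The extracranial tumors lay in the back (43825B), the jaw (43987A and R26P123), the nose (43990A) and the mouth (43998A). Groups followed the labelled sites, and every intra-CNS tumor was Shh and every other tumor Myc in the study's own assignment, which drew on expression in these tumors. The study placed 43990A at an intracranial site, and its labelled site was used here. Subgroup, site and, in part, the day of tamoxifen cannot be told apart in this design.

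Pax genes encode transcription factors that bind DNA through a paired domain and help to set the identity of embryonic tissues. Pax2, Pax5 and Pax8 act at the midbrain-hindbrain boundary, Pax2 and Pax8 also in the kidney, and Pax5 is in addition the commitment factor of B cells. Pax6 acts in the eye, the dorsal forebrain and cerebellar granule cells, Pax3 and Pax7 in the dorsal neural tube, neural crest and muscle precursors, and Pax1 and Pax9 in the sclerotome and pharyngeal pouches, with Pax9 also in facial and tooth mesenchyme. Pax4 is best known from the endocrine pancreas.

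Because members of a subfamily resemble each other, their transcripts (GENCODE M21, GRCm38) were compared to see whether reads could be split between them. The longest run of identical bases in each of 3 closely related pairs lies within the coding sequence of both genes and is shown to convey how short such stretches are, with the dinucleotide CG in capitals.
Pax1 and Pax9: atcctggCGCGctacaaCGagacCGg
Pax2 and Pax8: ggcaggtactaCGagactggcagcatc
Pax3 and Pax7: ctggaagtgtccacccctcttggcca
These runs measured 26, 27 and 26 bases. The longest runs of the pairs Pax2 and Pax5, Pax5 and Pax8, and Pax4 and Pax6 measured 17, 17 and 15 bases. The longest run between subfamilies, 37 bases shared by Pax3 and Pax6, lay outside both coding sequences. No pair of the 9 genes shared a stretch as long as a read, which was 100 bases. Whether the counting used strand was not stated, and the antisense gene Pax6os1 overlaps Pax6 over 1431 bases with 43 counts in all 16 tumors together. On the strand opposite to Pax5, 5730488B01Rik overlaps it over 2311 bases with 82 counts. AI646519 overlaps Pax1 over 869 bases with 25 counts, and Slc25a21 overlaps Pax9 over 189 bases with 2960 counts, both on the opposite strand. The opposite-strand genes Gm12462, over 20933 bases of Pax5, Gm13415, over 35182 bases of Pax8, and Gm20395, over 10751 bases of Pax2, were not analysed here, so that their share of the reads was not measured.

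The starts of 2 genes are shown, that of the member whose levels did not overlap between subgroups (Pax5) and that of the member that led the family in 5 of 16 tumors, 1 more than Pax3 or Pax6 (Pax9). Each window holds 250 bases before and 50 after a RefSeq start (GRCm38.p6), with CG in capitals.
Pax5, chr4:44710645-44710944, minus strand: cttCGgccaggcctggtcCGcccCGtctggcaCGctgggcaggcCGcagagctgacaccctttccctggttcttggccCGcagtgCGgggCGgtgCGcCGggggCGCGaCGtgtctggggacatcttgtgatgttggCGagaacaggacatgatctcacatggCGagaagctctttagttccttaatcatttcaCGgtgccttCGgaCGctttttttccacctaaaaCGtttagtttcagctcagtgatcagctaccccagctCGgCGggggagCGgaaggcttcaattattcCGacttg
Pax9, chr12:56695221-56695520, plus strand: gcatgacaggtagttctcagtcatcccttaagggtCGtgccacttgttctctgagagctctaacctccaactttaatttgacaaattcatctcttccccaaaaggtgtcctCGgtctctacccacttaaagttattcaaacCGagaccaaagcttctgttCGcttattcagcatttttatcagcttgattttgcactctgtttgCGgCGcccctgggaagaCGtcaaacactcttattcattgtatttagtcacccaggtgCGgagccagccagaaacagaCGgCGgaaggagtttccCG
The Pax5 window holds 23 CG and the Pax9 window 11, against a median of 7 over 32851 mouse windows of the same length. At least 23 CG were found in 21.5% of all windows and at least 11 in 41.4%. Windows were found for 7 of the 9 genes, 10 windows in all, but for neither Pax3 nor Pax4. The letters TATAAA, searched on both strands, were in 0 of the 10 Pax windows and in 13.6% of all windows.

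Total counts ranged from 17889968 to 110177889 per tumor, and 3 counts served as the floor of detection. Such floors cover counting error only. Smarcb1 itself stood between 3.99 and 58.1 TPM in Shh tumors and between 6.48 and 43.7 TPM in Myc tumors, and gene-level values do not show the deleted exons apart from the rest. In bulk RNA, fewer cells of a type and less RNA per cell cannot be told apart. Markers of normal tissue stood apart in single tumors. The 7 oligodendrocyte markers summed to 3902 TPM in 29048 and to at most 135 TPM in any other tumor, and the 6 choroid plexus markers summed to 205286 TPM in R26P115, of which transthyretin (Ttr) made 199516 TPM. The choroid plexus markers also stood apart in 29048, at 4663 TPM (Ttr 4535 TPM), and summed to at most 133 TPM in the other 14 tumors. As TPM values have the same sum in every tumor, the TPM of all other genes in R26P115 is lowered accordingly. In the comparison of subgroups, 26% of the 21854 genes tested (12.9% higher and 13.1% lower in Shh tumors) were called by edgeR, which required an adjusted p under 0.05 and a change of more than 1 on the log2 scale. At the same thresholds DESeq2 called 33.9% of the 18783 genes to which it gave an adjusted p, and limma on log2(TPM + 1) called 24.8%.

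Within the family, 2 of 9 genes (Pax4 and Pax5) passed this test between Shh and Myc tumors, against the background of 26%, and 1 of 9 (Pax5) had normalized counts that did not overlap between the subgroups, against 11.2% of all genes. Pax4, however, never exceeded the floor. On log2(TPM + 1) with an exact permutation test over all 4368 splits, 2 of 9 (Pax5 and Pax6) had an adjusted p under 0.05, against 39.7% of all genes. None of these shares lay above the background. With 9 genes, 1 more gene would have put either of the first 2 shares above it, so these set the family apart in neither direction. edgeR scales counts by a TMM factor, absent from TPM, of 1.11 to 1.18 in Shh and 0.782 to 1.05 in Myc tumors. With it, Pax3 was 417.9 CPM (counts scaled by library size) beside 343.3 TPM in the Shh tumor R26P87. It was 162.9 CPM beside 92.8 TPM in the Myc tumor R26P170. TPM thus set Shh tumors higher relative to Myc tumors than edgeR did. The permutation and limma tests on TPM, with their backgrounds, share this offset and are no independent check of edgeR. Levels varied widely between single tumors: 5 members (Pax1, Pax3, Pax5, Pax6 and Pax9) exceeded 10 TPM in at least 1 tumor, and each of these 5 lay under 0.1 TPM in at least 3 others.

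**Figure D1:**
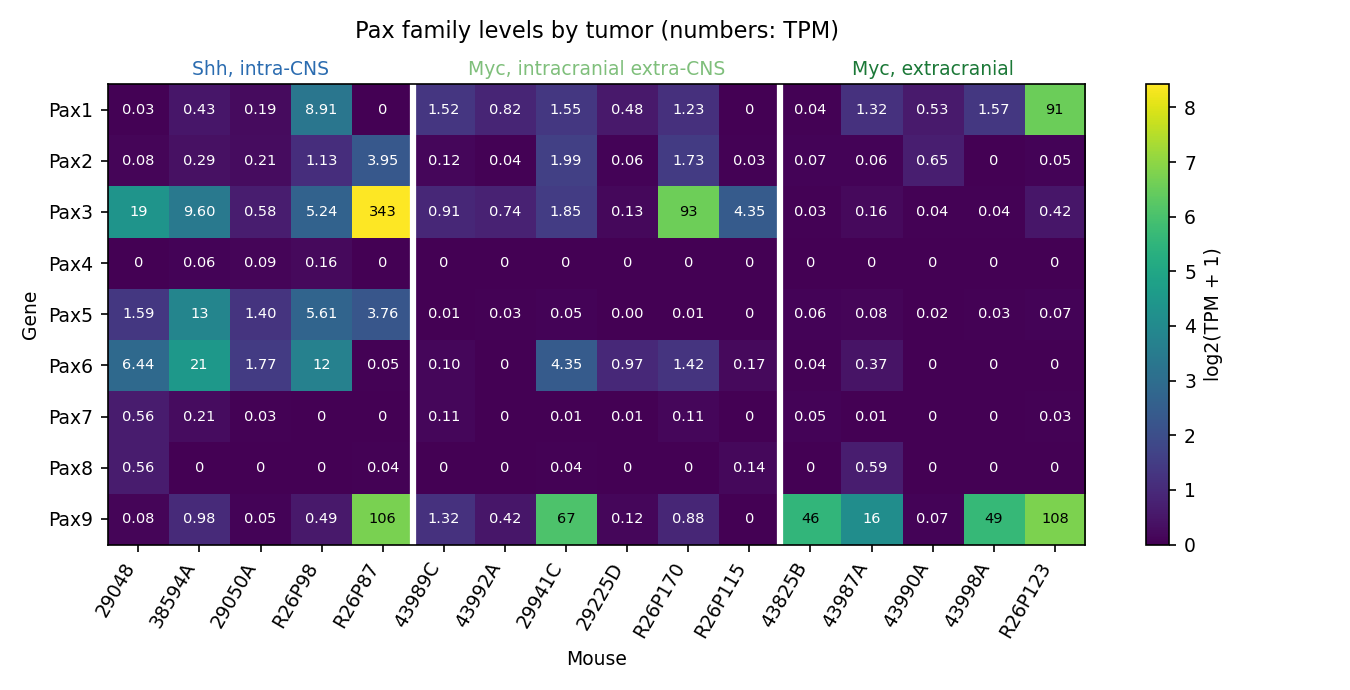
Levels of the 9 Pax genes in the 16 tumors, ordered by group, with color giving log2(TPM + 1) and the printed number the TPM. Pax5 forms a block in the 5 Shh tumors, from 1.40 to 13.2 TPM, Pax1 peaks in R26P123 (90.8 TPM) and Pax3 in R26P87 (343.3 TPM), and Pax9 exceeds 10 TPM in 6 tumors.

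Because TPM is corrected for gene length, the share of each member in the summed TPM of the family could be compared within a tumor. The summed level ran from 4.32 to 457.5 TPM in Shh tumors, from 1.77 to 98.2 TPM in intracranial Myc tumors and from 1.30 to 199.3 TPM in extracranial Myc tumors. Pax6 led in 3 Shh tumors (38594A, 29050A and R26P98) and Pax3 in the other two (29048 and R26P87). Among intracranial Myc tumors, Pax1 led in 43989C and 43992A, Pax3 in R26P170 and R26P115, Pax6 in 29225D and Pax9 in 29941C. Among extracranial Myc tumors, Pax9 led in 4 of 5, and Pax2 led in the nose tumor 43990A, whose summed level of 1.30 TPM was the lowest of all. The leading share was 99.4% in the back tumor 43825B, 96.7% in the mouth tumor 43998A and 94.5% in R26P170, but 35.9% in R26P98. Ranked by raw counts instead of TPM, the leading member was the same in 12 of 16 tumors.

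**Figure D2:**
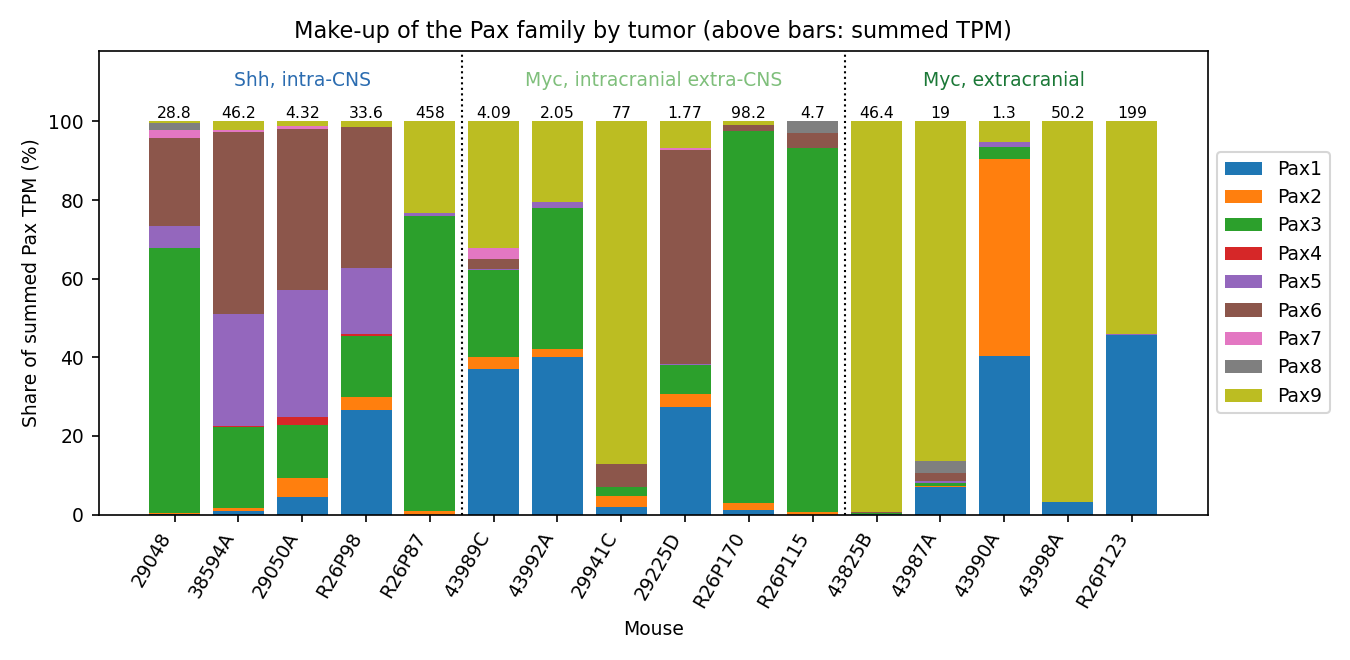
Share of each Pax gene in the summed Pax TPM of a tumor, in percent, with the summed TPM printed above each bar. Pax9 fills most of the bar in 4 of 5 extracranial Myc tumors, while Pax5 takes a visible share in Shh tumors such as 38594A and 29050A.

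Pax5 (ENSMUSG00000014030.15, chr4:44524757-44710487, minus strand, GRCm38) was higher in Shh tumors. Its TPM was 1.59 in 29048, 13.2 in 38594A, 1.40 in 29050A, 5.61 in R26P98 and 3.76 in R26P87. In the 6 intracranial Myc tumors it ran from 0 to 0.0531 TPM with a median of 0.0122, and in the extracranial ones it was 0.0638, 0.0817, 0.0178, 0.0270 and 0.0692 TPM in 43825B, 43987A, 43990A, 43998A and R26P123. The lowest Shh tumor lay above every Myc tumor, so that the groups did not overlap. The mean was 5.12 ± 4.85 TPM (SD, n = 5) in Shh and 0.0336 ± 0.0285 TPM (SD, n = 11) in Myc tumors. The log2 fold change was 6.67 (SE 0.74), with an adjusted p of 1.47e-05 in edgeR's quasi-likelihood test. The exact permutation test gave a difference of 2.24 in log2(TPM + 1) and a two-sided p of 0.000458, the smallest it can give (adjusted p 0.00299). With any single tumor left out, the edgeR log2 fold change stayed between 5.96 and 6.91. It was 6.55 among tumors induced at E6 alone and 7.43 among intracranial tumors alone (adjusted p 0.0236 and 0.000467 in edgeR).

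As B cells transcribe Pax5, their markers were read beside it. The 9 B cell markers summed to between 4.90 and 43.9 TPM in Shh tumors, 4.08 and 24.1 TPM in intracranial Myc tumors and 4.96 and 24.0 TPM in extracranial ones. Ebf1 alone made 40.3 TPM of the highest Shh sum (R26P98) and 21.7 TPM of the highest Myc sum (R26P170). Of the 9, 1 was called higher in Shh tumors (Ebf1, a factor of B cells and of neurons) and 2 lower by edgeR, while DESeq2 called 1 higher (Cr2) and 3 lower, and limma 1 higher and 1 lower. Of those that DESeq2 called lower, Cd79b, a part of the B cell receptor, was 0.196 to 0.729 TPM in Shh and 0.580 to 11.6 TPM in Myc tumors, and Blk, a B cell kinase, was at most 0.394 TPM in Shh tumors and 13.1 TPM in 29225D. Cr2, a complement receptor of B cells, was 0.123 to 2.58 TPM in Shh tumors, highest in 29050A, and at most 0.176 TPM in Myc tumors. The defining marker Ms4a1 did not exceed 0.149 TPM in any of the 16 tumors, a level reached in the Shh tumors R26P98 and R26P87. It was at 0 in 38594A, where Pax5 was highest. The part of B cells in the Pax5 values was not tested.

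The close relatives of Pax5 did not share its pattern. Pax2 (ENSMUSG00000004231.15, chr19:44756045-44837871, plus strand) stood at 0.0842, 0.293, 0.206, 1.13 and 3.95 TPM in the Shh tumors 29048, 38594A, 29050A, R26P98 and R26P87. In Myc tumors Pax2 ran from 0 to 1.99 TPM, with the highest values in 29941C (1.99), R26P170 (1.73) and 43990A (0.651). The groups overlapped, with a log2 fold change of 0.86 (SE 1.18, adjusted p 0.588 in edgeR) that became -0.52 without R26P87. Pax8 (ENSMUSG00000026976.15, chr2:24420560-24475599, minus strand), which drives thyroid and kidney development, had no count in 11 of 16 tumors. Its highest values were 0.592 TPM in the jaw tumor 43987A (34 counts) and 0.562 TPM in 29048 (17 counts), and no other tumor held more than 5 counts. Its log2 fold change of 0.14 (SE 1.53, adjusted p 0.953 in edgeR) became -3.16 without 29048, the tumor with the high oligodendrocyte and choroid plexus markers, whose part in the value was not tested.

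Of 8 genes of the midbrain-hindbrain boundary that act with Pax2, Pax5 and Pax8, 4 were called higher in Shh tumors and 1 lower by edgeR, against 12.9% higher and 13.1% lower of all genes, with a median log2 fold change of 2.53 beside -0.15 over all genes tested. Fgf8, the signal of the boundary organizer, was 3.03, 2.38, 0.414, 34.2 and 103.4 TPM in 29048, 38594A, 29050A, R26P98 and R26P87 and at most 0.260 TPM in Myc tumors (log2 fold change 8.09, SE 1.16, adjusted p 9.86e-05 in edgeR). En2, an engrailed homeobox gene, was between 29.7 and 268.5 TPM in Shh and at most 5.37 TPM in Myc tumors (6.77, SE 1.34, adjusted p 0.00110 in edgeR). Hes3, a repressor of the Hes family, and Fgf17 were also called higher, with log2 fold changes of 6.32 and 3.10. Lmx1b was called lower (-2.59) and reached at most 6.31 TPM in any tumor. En1, with a log2 fold change of 1.97 and an adjusted p of 0.0509 in edgeR, lay just outside the threshold. DESeq2 also called 4 higher and 1 lower, En1 among them but not Hes3, and limma called 5 higher. Wnt1, a further organizer gene, was at most 0.0936 TPM in all 16 tumors. Within the Shh tumors the order of Pax5 was not that of En2 or Fgf8: Pax5 was highest in 38594A, En2 in R26P98 and Fgf8 in R26P87.

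**Figure D3:**
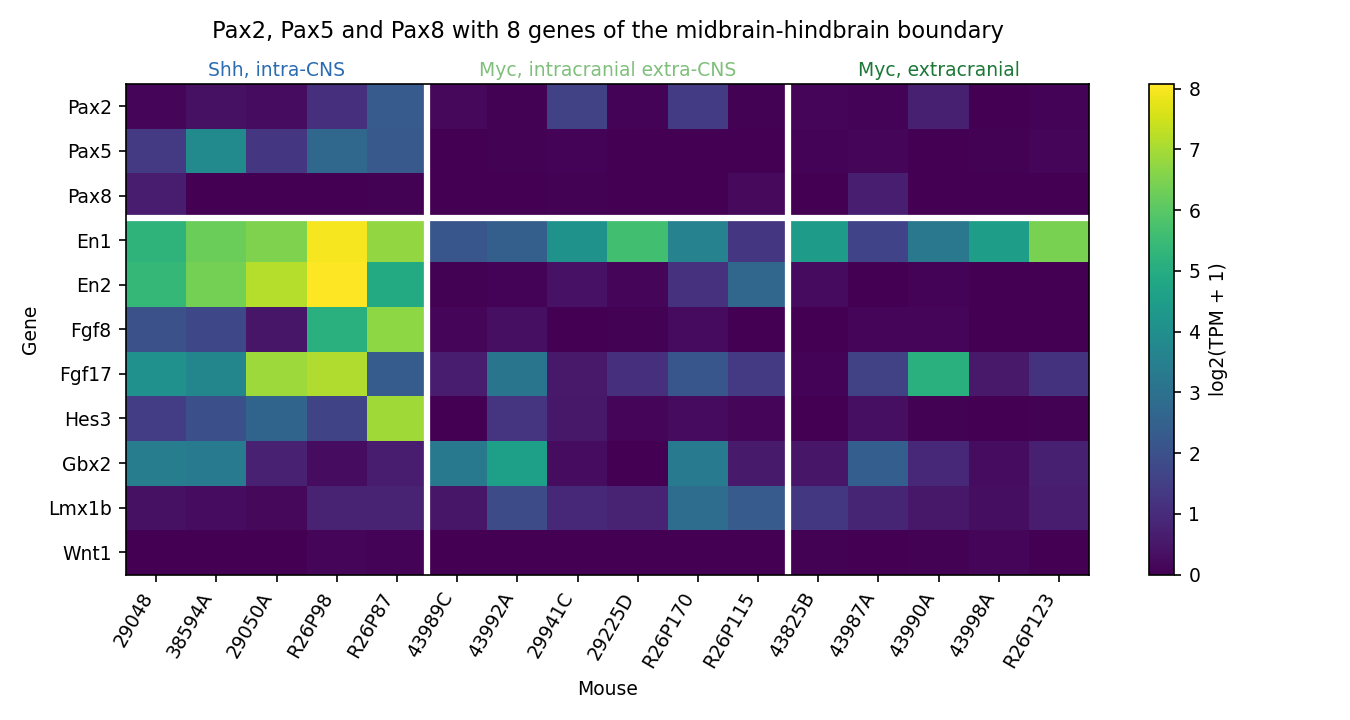
Levels of Pax2, Pax5 and Pax8 (top) and of 8 genes of the midbrain-hindbrain boundary (bottom) in the 16 tumors, as log2(TPM + 1). En2 and Pax5 are visible in all 5 Shh tumors, Hes3 and Fgf8 peak in R26P87 (120.9 and 103.4 TPM), and Wnt1 is near 0 throughout.

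The kidney genes around Pax2 and Pax8 gave 4 called higher and 1 called lower in Shh tumors of 10 tested by edgeR, with a median log2 fold change of 0.61, beside 12.9% higher, 13.1% lower and a median of -0.15 over all genes. DESeq2 called 3 higher and 2 lower, and limma 3 higher and 1 lower. Lhx1, a LIM homeobox gene of kidney and brain, was between 1.33 and 27.4 TPM in Shh and at most 0.530 TPM in Myc tumors (log2 fold change 6.38). Hoxd11 and Wt1 were also called higher by edgeR. Wt1 was 9.07 TPM in R26P98 and at most 0.469 TPM in the other Shh tumors, and DESeq2 did not call it. Osr1, an early mesoderm factor, was called lower, at most 1.94 TPM in Shh and between 2.76 and 309.1 TPM in Myc tumors (-6.76). Defining markers of kidney epithelium, 6 in number, summed to at most 5.55 TPM in any tumor.

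Pax6 (ENSMUSG00000027168.21, chr2:105668900-105697364, plus strand) was present in 4 of 5 Shh tumors. It stood at 6.44 TPM in 29048, 21.4 in 38594A, 1.77 in 29050A and 12.1 in R26P98, but at 0.0465 TPM (2 counts, under the floor) in R26P87. Among intracranial Myc tumors it was 0.102 TPM in 43989C, 0 in 43992A, 4.35 in 29941C, 0.966 in 29225D, 1.42 in R26P170 and 0.172 in R26P115. The extracranial tumors held 0.0440 TPM in 43825B and 0.367 TPM in 43987A, and no count in 43990A, 43998A and R26P123. The subgroups overlapped, since 29941C lay above 29050A and R26P87 below several Myc tumors.

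Means of Pax6 were 8.35 ± 8.67 TPM (SD, n = 5) in Shh and 0.674 ± 1.31 TPM (SD, n = 11) in Myc tumors. The log2 fold change of 3.13 (SE 1.38) did not pass edgeR's test at an adjusted p of 0.0925. On log2(TPM + 1) the difference of 2.02 had an exact two-sided permutation p of 0.0105 (adjusted p 0.0296), and limma gave an adjusted p of 0.0122. Both of these used TPM, which sets Shh tumors higher than edgeR's scale does, as described above. The permutation call was lost without 29048, 38594A or R26P98 (adjusted p 0.0711, 0.0852 and 0.0818 by exact permutation) and with a pseudocount of 0.01 or on log2 CPM (0.0555 and 0.0635). In edgeR, Pax6 was called without 29941C (4.25, adjusted p 0.0264) and against the extracranial Myc tumors alone (6.02, adjusted p 0.0272), a comparison in which 26.2% of all genes were called. Among intracranial tumors alone it was 2.34 (adjusted p 0.212 in edgeR).

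Genes of the dorsal forebrain around Pax6 gave 6 called higher and 0 lower of 10 by edgeR, DESeq2 and limma alike, with a median log2 fold change of 3.62 in edgeR, beside 12.9% called higher and a median of -0.15 over all genes. Neurog2, a proneural factor downstream of Pax6 in the cortex, was 27.1, 43.5, 2.93, 7.52 and 87.8 TPM in 29048, 38594A, 29050A, R26P98 and R26P87 and at most 0.0958 TPM in Myc tumors (log2 fold change 9.80). Neurod1, Neurog1 and Neurod2, all proneural or neuronal differentiation factors, had log2 fold changes of 6.33, 6.25 and 5.30. R26P87 thus combined the highest Neurog2 of all tumors with a Pax6 count under the floor. Eomes, a marker of cortical intermediate progenitors, was not called (-2.32, adjusted p 0.307 in edgeR) and was highest in the Myc tumor 43992A, at 90.1 TPM.

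Several normal cell types express Pax6, and their markers were read in the same tumors. All 6 cerebellar granule neuron markers, which share Neurod1 with the forebrain list, were called higher in Shh tumors by edgeR, 4 by DESeq2 and 3 by limma. They summed to between 56.4 and 154.6 TPM there, against 1.03 to 13.3 TPM in intracranial and 2.97 to 27.0 TPM in extracranial Myc tumors. Of the sum of 154.6 TPM in R26P87, where Pax6 was lowest among Shh tumors, Cbln1 made 145 TPM. Gabra6 and Cbln3 were 14.3 and 20.7 TPM in 29050A and at most 0.159 and 2.19 TPM in any other tumor. Pituitary hormone markers summed to 424.6 TPM in 43989C, and Gh, growth hormone, was 175.4 TPM there and 159.9 TPM in R26P170, the tumors with 0.102 and 1.42 TPM of Pax6. In 29941C, the Myc tumor with the most Pax6, the islet gene Gcg was 119.8 TPM and at most 1.78 TPM in any other tumor, while none of the other 5 islet markers exceeded 0.451 TPM there. The 8 lens and retina markers summed to between 3.30 and 21.1 TPM in Shh tumors and to at most 10.5 TPM in Myc tumors, with 1 called higher by edgeR and limma and 2 by DESeq2. Olfactory markers gave 1 called higher and 1 lower of 5 by edgeR and DESeq2, and 1 higher by limma. The part of these cell types in the Pax6 values was not tested.

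Pax4 (ENSMUSG00000029706.15, chr6:28442334-28449353, minus strand) had 6 counts over all tumors, namely 1 in 38594A, 3 in 29050A and 2 in R26P98, none of them above the floor. edgeR called it (log2 fold change 3.25, adjusted p 0.0314), and did not call it with the naming scheme of the mice (numbered or R26P) as covariate (adjusted p 0.0575), but with all tumors at or under the floor no change in level can be given.

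Pax3 (ENSMUSG00000004872.15, chr1:78101267-78197134, minus strand) had the largest range of the family. In Shh tumors its TPM was 19.4 in 29048, 9.60 in 38594A, 0.585 in 29050A, 5.24 in R26P98 and 343.3 in R26P87. In intracranial Myc tumors it was 0.909 in 43989C, 0.739 in 43992A, 1.85 in 29941C, 0.132 in 29225D, 92.8 in R26P170 and 4.35 in R26P115. The extracranial Myc tumors held at most 0.423 TPM, with a median of 0.0383. R26P87 and R26P170 stood far above the rest of their groups, and the lowest Shh tumor still exceeded every extracranial tumor, while Shh and intracranial Myc tumors overlapped.

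For Pax3, the log2 fold change between Shh and Myc tumors was 2.50 (SE 1.65, adjusted p 0.248 in edgeR), and the exact two-sided permutation p was 0.0627. With the naming scheme of the mice as covariate, edgeR called Pax3 (3.20, SE 1.14, adjusted p 0.0418). Single tumors decided the value without it: it was -0.61 without R26P87 and 5.81 (adjusted p 0.00439 in edgeR) without R26P170. DESeq2 gave 5.69 and, as it sets aside genes with an extreme count, no adjusted p. Against the extracranial Myc tumors alone, the edgeR log2 fold change was 8.55 (SE 1.90, adjusted p 0.00751). Among tumors induced at E6 alone it was 0.18.

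Pax3 also had the lowest edgeR p of the family between the Myc sites, where no Pax gene was called. In that comparison 1 gene of 21261 was called (0.0047%), and 12.3% had an unadjusted p under 0.05, among them Pax1 and Pax3. DESeq2 called 490 genes (2.89%) at the same threshold, and both DESeq2 and limma called 0 Pax genes. The log2 fold change of Pax3 was 6.91 higher in intracranial tumors (SE 1.90, p 0.00363, adjusted p 0.345 in edgeR). It was 3.64 without R26P170. On log2(TPM + 1), 5 of 6 intracranial tumors lay above the highest extracranial tumor, with a difference of 1.89 (exact two-sided permutation p 0.0130, adjusted p 0.613).

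Pax7 (ENSMUSG00000028736.13, chr4:139737062-139833528, minus strand), the partner of Pax3 and marker of muscle satellite cells, was low throughout. Its highest values were 0.556 TPM in 29048 (28 counts) and 0.207 TPM in 38594A (11 counts), and it had no count in 6 tumors. The log2 fold change was 1.87 (SE 1.12, adjusted p 0.207 in edgeR), and ran from 0.48 to 2.34 with single tumors left out. Without 29048 the difference in log2(TPM + 1) fell from 0.147 to 0.0354. Markers of skeletal muscle and satellite cells summed to 639.6 TPM in the jaw tumor R26P123, where Pax7 held 2 counts. Myf5, a myogenic determination factor and target of Pax3, was 60.8 TPM in R26P87, the tumor with the most Pax3, and at most 0.249 TPM in any other tumor. Myod1, which acts with Myf5, was 0.0597 TPM in R26P87.

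Of 13 genes of the neural crest and neural plate border around Pax3 and Pax7, 0 were called higher and 2 lower in Shh tumors by edgeR, Mitf (-2.49) and Ets1 (-1.97), with a median log2 fold change of 0.13. The share called by edgeR lay under the background of 26%. In that list 4 genes had an unadjusted p under 0.05 in edgeR. DESeq2 called 2 higher (Zic1 and Msx2) and 2 lower, and limma called 3 higher and 1 lower. DESeq2's share lay under its background of 33.9%, while limma's lay above its background of 24.8%. Mitf specifies melanocytes, and Ets1 acts in crest migration. Zic1, a border gene, was 153.8 to 439.4 TPM in Shh and 0.0424 to 105.0 TPM in Myc tumors. It did not overlap between the subgroups in TPM but had an adjusted p of 0.0650 in edgeR (log2 fold change 2.79). Its highest Myc value was in R26P115, whose TPM values are lowered as described above. Overlap of Zic1 in normalized counts was not read, and no share over all genes was computed for overlap in TPM. Schwann cell and melanocyte markers summed to 2610 TPM in 29048, the tumor with the high oligodendrocyte markers. In R26P87 Sox10, a crest and glial factor, was 2.20 TPM.

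Pax9 (ENSMUSG00000001497.18, chr12:56691767-56712822, plus strand) was high in most extracranial tumors, with 46.1 TPM in the back tumor 43825B, 16.4 in the jaw tumor 43987A, 48.6 in the mouth tumor 43998A and 107.9 in the jaw tumor R26P123. The nose tumor 43990A held 0.0673 TPM. In intracranial Myc tumors Pax9 was 67.1 TPM in 29941C and at most 1.32 TPM in the other 5, with no count in R26P115. In Shh tumors it was 106.5 TPM in R26P87 and 0.0784, 0.985, 0.0540 and 0.486 TPM in 29048, 38594A, 29050A and R26P98. Pax9 was thus above 10 TPM in 6 tumors and at or under 1.32 TPM in the other 10, and each of the 3 groups contained both kinds.

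Group comparisons of Pax9 rested on these single tumors. Between Shh and Myc tumors the log2 fold change was -0.80 (SE 1.83, adjusted p 0.753 in edgeR), and -6.55 (adjusted p 0.0536) without R26P87. Between intracranial and extracranial Myc tumors it was -1.93 (SE 1.77, adjusted p 0.677 in edgeR), and -6.31 without 29941C. The difference of -2.95 in log2(TPM + 1) between the sites had an exact two-sided permutation p of 0.113 (adjusted p 0.818). Without the nose tumor 43990A it was -4.04, with an unadjusted permutation p of 0.0381 that did not stay under 0.05 after adjustment. With 43990A set among the intracranial tumors the edgeR log2 fold change was -2.47 (adjusted p 0.590).

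Pax1 (ENSMUSG00000037034.16, chr2:147361925-147393295, plus strand) was high in 1 tumor. In R26P123 it reached 90.8 TPM (3372 counts), and the next values were 8.91 TPM in R26P98 and 1.57 TPM in 43998A. R26P87 and R26P115 had no count. Among Shh tumors R26P98 stood alone, with 0.427 TPM in the next highest. The log2 fold change between Shh and Myc tumors was -2.70 (SE 1.93, adjusted p 0.290 in edgeR) and 0.56 without R26P123. Between the Myc sites it was -4.28 (SE 1.64, adjusted p 0.370 in edgeR) and 0.09 without R26P123. R26P123 was therefore the tumor in which Pax1 and Pax9 were both highest, at 90.8 and 107.9 TPM, whereas in R26P87 and 29941C Pax9 was high with Pax1 at 0 and 1.55 TPM.

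**Figure D4:**
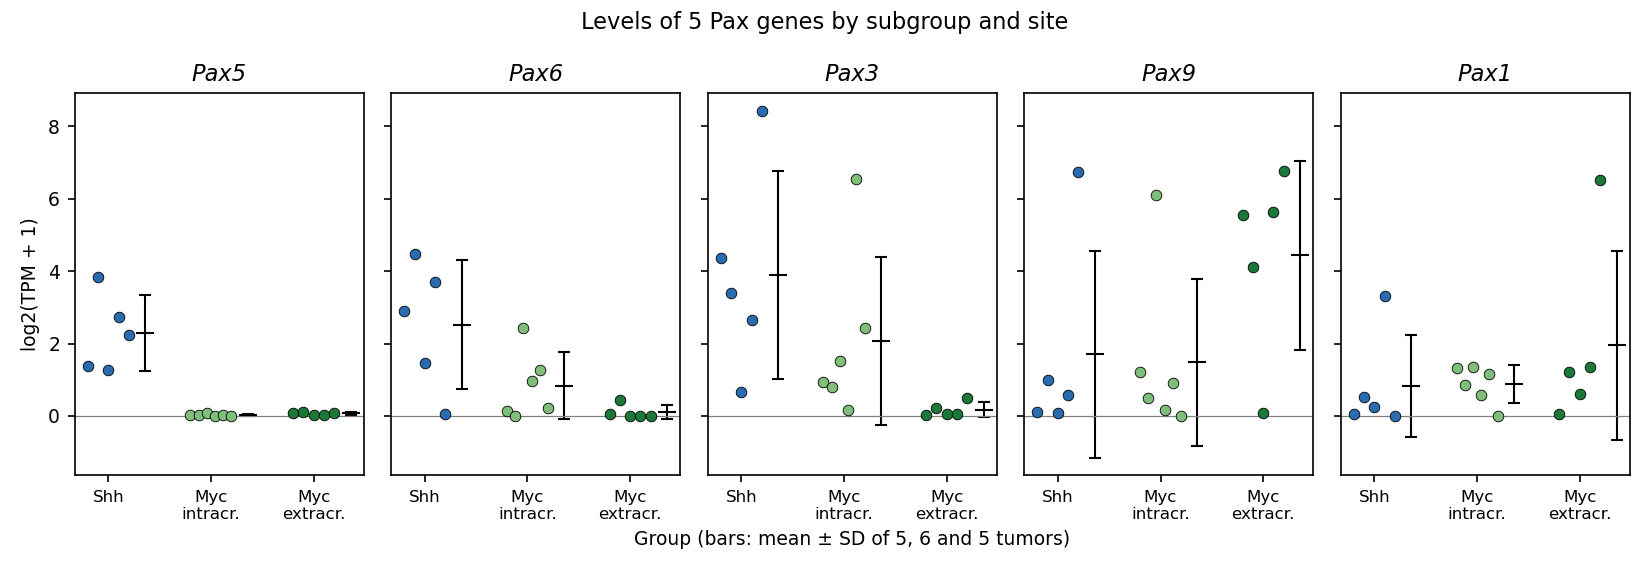
Levels of 5 Pax genes as log2(TPM + 1), each point 1 tumor, with bars for mean ± SD of the 5 Shh, 6 intracranial Myc and 5 extracranial Myc tumors. Pax5 separates the subgroups, Pax6 and Pax3 have their lowest means in extracranial tumors, and single tumors stand far above the rest of their group for Pax9 (R26P87 and 29941C) and Pax1 (R26P98 and R26P123).

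Of 14 genes of the sclerotome and pharyngeal mesenchyme around Pax1 and Pax9, 7 were called lower and 2 higher in Shh tumors by edgeR, against 13.1% lower and 12.9% higher of all genes, with a median log2 fold change of -3.79. DESeq2 called 1 higher and 8 lower, and limma on log2(TPM + 1) called 1 of the 14, against 33.9% and 24.8% of all genes. Lhx8, a LIM homeobox gene of tooth and palate mesenchyme, was at most 0.407 TPM in Shh tumors and between 0.0460 and 262.2 TPM in Myc tumors (log2 fold change -9.29). Its highest values were in R26P123 and 43998A (164.5 TPM), 2 of the tumors with high Pax9. In R26P170, 43989C and 43992A, where Pax9 was at most 1.32 TPM, Lhx8 was 156.2, 62.6 and 59.4 TPM. In R26P87, where Pax9 was 106.5 TPM, Lhx8 was 0.112 TPM. Meox1, a somite homeobox gene, was at most 5.56 TPM in Shh tumors and 240.6 and 209.0 TPM in 43987A and 43998A (-4.70). Foxf1, a mesenchymal forkhead factor, had a log2 fold change of -4.67. Uncx, a sclerotome gene, was called higher (4.68) at no more than 1.54 TPM. Of the 12 genes of the network of transcription factors and cofactors that work with Pax proteins, 1 was called higher (Dach2, 3.24) and 2 lower in Shh tumors, by edgeR, a share close to the background of 26%. DESeq2 called 1 higher and 3 lower and limma 3 higher and 2 lower, against 33.9% and 24.8% of all genes, so that limma's share lay above its background. Of those called lower, Six4 had a log2 fold change of -4.37. Between the Myc sites edgeR called 0 of the 65 genes of the 6 lists, 11 of which had an unadjusted p under 0.05, while DESeq2 called 3 (En2, Osr2 and Snai2) and limma 0.

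The remaining marker lists add the following. Of 5 thyroid markers, edgeR called 2 higher and 1 lower in Shh tumors, DESeq2 2 higher and 2 lower, and limma 1 higher, and thyroglobulin (Tg) was at most 0.151 TPM in all tumors, including 43987A, where Pax8 was highest. Slc5a5, the iodide transporter, stood apart in 43825B and 29225D (375 and 376 TPM), with at most 62.1 TPM in any other tumor. Of 9 skeletal muscle markers, edgeR called 2 higher and 5 lower, DESeq2 1 higher and 5 lower, and limma 1 lower. Of 5 islet markers tested, edgeR called 2 higher and DESeq2 and limma 1 each. Pituitary markers gave 0 of 7 by edgeR, DESeq2 and limma (1 with an unadjusted p under 0.05), choroid plexus markers 1 lower of 6 by edgeR and DESeq2 and 0 by limma, and oligodendrocyte markers 6 higher of 7 by edgeR but 0 by DESeq2 and limma. Of 8 Schwann cell and melanocyte markers, edgeR and limma each called 1 higher, whereas DESeq2 called 1 lower (Pmel). Of 6 kidney epithelium markers, edgeR and limma called 1 higher and DESeq2 1 higher and 1 lower. Of 4 inner ear and ependyma markers, edgeR and limma called 1 higher and DESeq2 2. Their part in the Pax values was not tested. Without both 29048 and R26P115, the edgeR log2 fold changes of Pax5, Pax6 and Pax3 were 6.77, 3.11 and 2.68, and 5880 genes were called in place of 5689.

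**Figure D5:**
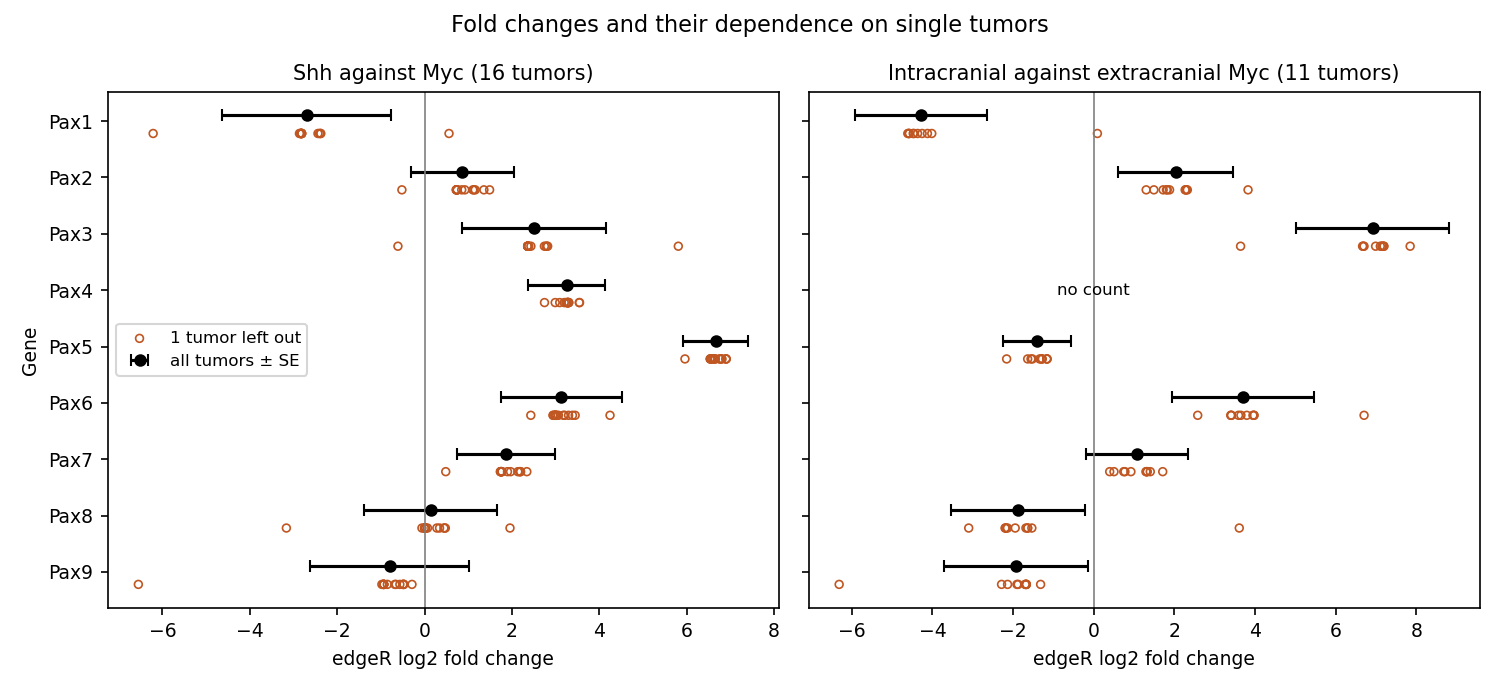
edgeR log2 fold changes of the Pax genes with their SE (black) and with each tumor left out in turn (open circles), for both comparisons. Pax5 keeps its value, from 5.96 to 6.91, when any tumor is left out, while Pax1, Pax2, Pax3 and Pax8 cross 0 in the comparison of subgroups.

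For each member whose mean count reached 50, the genes with the most similar levels over the 16 tumors were read out among 14802 genes by Pearson's r of log2(TPM + 1), as a description. Pax5 was most like D630023F18Rik (0.96), Grik1, a kainate receptor subunit (0.96), and Bche, a cholinesterase (0.95). Over the 11 Myc tumors alone, these coefficients were 0.30, 0.40 and 0.77. Pax6 was most like March3 (0.89), Lix1 (0.89) and Tshr (0.88). Pax3 was most like Ap3m2 (0.84), Reln, the extracellular guide of migrating neurons (0.84), and Six3, a forebrain and eye homeobox gene (0.82). All 3 were highest in R26P87, at 262.1, 99.1 and 42.5 TPM. Pax1 was most like Dsc3 (0.90), Pkp1 (0.88) and Krt6a (0.87), a desmosomal cadherin, a desmosomal plaque protein and a keratin of stratified epithelia. These epithelial genes were all highest in R26P123, with Krt6a at 278.9 TPM there and at most 0.773 TPM in any other tumor. Pax9 was most like Zxdc (0.79), Cabp1 (0.79) and Sept9 (0.75). Ranked by Spearman's rho, none of these 15 genes was among the 3 most similar, and the tumors share differences in depth and composition.

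Of the 18 neighboring genes, 2 were highest in the tumor with the most of their Pax gene, Elp4 beside Pax6 and Hif1an beside Pax2. Elp4, whose introns hold enhancers of Pax6, lies 3.66 kb from it and was highest in 38594A (19.1 TPM), the tumor with the most Pax6. Rcn1, on the other side of Pax6, was 84.7 TPM there, under its median of 122.6 TPM. The neighbors of Pax9 were not highest in R26P123, where Nkx2-9 was 0.453 TPM (median 0.335) and Prps1l3 36.3 TPM (median 39.8). Nkx2-9 was highest in 29941C (7.18 TPM), another tumor with high Pax9. Epha4, the neighbor of Pax3, was 44.2 TPM in R26P87 and highest in 29048 (69.4 TPM).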

How the data were processed

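Polyadenylated RNA of 16 tumors was sequenced by the authors as stranded 100-base paired-end libraries. Per the labels, reads were trimmed with Trim Galore, checked with FastQC and Picard and aligned to mm10 with STAR 2.5.3a. The gene annotation and the strand setting are not given in the sources used here. The authors deposited raw counts per gene, without normalization, and TPM values of the same tumors. Total counts per tumor are given with the results.

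After removal of genes without counts, 21854 genes were compared between the subgroups, and 21261 between the Myc sites on the 11 Myc tumors alone, with edgeR 4.0.16 (TMM normalization, glmQLFit, glmQLFTest) in R 4.3.3. P-values were adjusted by Benjamini-Hochberg over all genes tested. As each tumor came from a different mouse, they measure the spread between mice. Mean log2(TPM + 1) was tested by exact two-sided permutation of the group labels (scipy 1.17.1, numpy 2.4.6, pandas 2.3.3, Python 3.11.15, matplotlib 3.10.9). On simulated counts edgeR recovered 77% of genes changed 8-fold and 56% changed 4-fold between 5 and 11 tumors (9 false calls), and 60% and 33% between the Myc sites (1 false call).

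Pax genes, 6 lists of other genes and 13 lists of cell type markers were chosen with earlier results of these data known. Named are all Pax genes, up to 4 called genes of largest fold change per list, the 3 genes most like each Pax gene, Smarcb1, and markers where a tumor stood apart. Lmx1b, En1, Wnt1, Eomes, Emx1, Emx2, Lhx2, Cr2, Cd79b, Blk, Zic1, Msx2, Myod1, the list genes called by DESeq2 alone and the neighboring genes were named after their values were seen. Alternatives were DESeq2 1.42.0, its size factors in edgeR, limma 3.58.1, filterByExpr on low counts, omission of the fold threshold, pseudocounts of 0.1 and 0.01, log2 CPM, the naming scheme of mice (numbered or R26P) as covariate or stratum, subsets of tumors, 43990A as intracranial, and the omission of single tumors. The omission of 29048 and R26P115 together was added after seeing the data. Promoter windows are from RefSeq. Some genes of the lists are not reported here.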

Additional observations from a re-analysis of the deposited data

Results flagged for a closer look

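In 10 of 25 sets (a Pax gene in 1 group of 5 or 6 tumors), a single tumor lay far from the rest of its group by Dixon's test on log2(TPM + 1). For normally distributed values, chance marks about 1 in 20 groups. These levels are skewed and many are at or near 0, so the 10 of 25 cannot be set against that rate. Where all other tumors are at 0, as for Pax8 among extracranial Myc tumors, any value above 0 is marked. The values with the most counts behind them, 212 to 13994, were Pax1 in R26P98 (3.31, next 0.51) among Shh tumors and in R26P123 (6.52, next 1.36) among extracranial Myc tumors, Pax3 in R26P170 (6.55, next 2.42) among intracranial Myc tumors, and Pax9 in R26P87 (6.75, next 0.99) among Shh and in 29941C (6.09, next 1.21) among intracranial Myc tumors. The others rested on 4 to 39 counts, namely Pax2 in 43990A (0.72) and Pax6 in 43987A (0.45) among extracranial Myc tumors, and Pax8 in 29048 (0.64), R26P115 (0.19) and 43987A (0.67). The cause of these values was not tested.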

How the results depend on the processing

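No paired analysis was possible because no mouse contributed more than 1 tumor, and equal replicate numbers in different groups pair nothing. Pax5 was called between Shh and Myc tumors under every edgeR, DESeq2 and limma setting run. By exact permutation it had an adjusted p under 0.05 in every setting but the R26P mice alone, where 2 tumors against 3 cannot give a p under 0.2 (difference 2.45). The 2 Pax genes called became 1 with DESeq2, the filter on low counts, E6 tumors alone or intracranial tumors alone, 3 against extracranial Myc tumors, and 1 to 3 with single tumors left out, and with the naming scheme as covariate they were Pax3 and Pax5, and with limma Pax5 and Pax6, in place of Pax4 and Pax5. By permutation, the 2 became 1 with a pseudocount of 0.01, log2 CPM or numbered mice alone, 0 with R26P mice alone, and 1 to 3 with single tumors left out. All genes called fell from 5689 to 3533 with E6 tumors alone, and ran from 4766 to 6649 with single tumors left out. Between the Myc sites, 1 gene became 490 with DESeq2, 0 with E8 tumors alone or 1 fit over 3 sites, and 0 to 3 with single tumors left out, while the count of Pax genes stayed at 0 by edgeR and permutation. Of the 15 genes most like a Pax gene, 0 remained among the 3 most similar by rank correlation, while 1, 13, 2, 11 and 19 of the 50 most similar were shared for Pax1, Pax3, Pax5, Pax6 and Pax9.

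Directions of uncalled genes turned as follows. With single tumors left out, the edgeR log2 fold change between subgroups ran from -6.21 to 0.56 for Pax1 (above 0 without R26P123), -0.52 to 1.49 for Pax2 (below 0 without R26P87), -0.61 to 5.81 for Pax3 (below 0 without R26P87) and -3.16 to 1.96 for Pax8 (below 0 without 29048, 43989C or 29225D), and the Pax8 difference in log2(TPM + 1) from -0.068 to 0.12. Between the Myc sites it ran from -4.61 to 0.090 for Pax1 (above 0 without R26P123) and -3.10 to 3.61 for Pax8 (above 0 without 43987A), with differences in log2(TPM + 1) from -1.55 to 0.069 and -0.13 to 0.041. Between subgroups, the fold change of Pax1 became 0.61 with DESeq2, 1.06 with E6 tumors and 0.52 with intracranial tumors, Pax2 -0.20 with the naming scheme as covariate and -0.21 with E6 tumors, Pax8 -0.58 against extracranial Myc tumors and -3.06 without 29048 and R26P115, and Pax9 0.40 with intracranial tumors. In log2(TPM + 1), Pax2 became -0.096 in numbered mice, and Pax7, Pax8 and Pax9 became -0.066, -0.033 and 1.10 in R26P mice. Between the Myc sites, Pax1 became 0.22 in numbered mice and Pax8 0.096 in R26P mice. The cause was not tested. Pax4, Pax7 and Pax8 held at most 34 counts in any tumor, so that their directions rest on few counts.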
